A study of Mus musculus with 8 samples.

Results

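Collagen genes were taken as every gene whose symbol is Col, a number, the letter a and a number, the form used for the alpha chains of collagens. They made up 44 of the 50763 genes in the count tables. All 44 had a read in some library and 31 had a read in every library, and 32 had enough reads to be tested. The RNA came from live immune cells sorted from the dissociated brain on day 23 after GL261-mCherry-EGFP cells, a mouse glioma line made fluorescent, were placed in the brain. Cells positive for both mCherry and CD45.2 were kept, so the sort was set for CD45.2-bearing cells that carried the tumour's red fluorescent protein, and the submitters call them phagocytes. The hosts were WT mice or muMT mice, a strain that lacks mature B cells, and each host received isotype IgG or anti-CTLA-4, an antibody to an inhibitory receptor of T cells. Every group carried the same tumour line, and each of the 4 groups (each host with each antibody) had 2 libraries. The ages of the mice are not given in the sources used here, nor whether each library is a mouse of its own. The p-values therefore speak of the scatter among the libraries, which may be technical.

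Collagens are secreted proteins in which 3 alpha chains wind into a triple helix, and they form much of the scaffold between cells. Fibrillar collagens such as types I and III are made mainly by fibroblasts, type IV forms the sheet of the basement membrane around vessels, and the FACIT collagens bind to the surface of fibrils. In brain, collagens are known mainly from the vessel wall and the meninges, and tissue phagocytes take up and degrade them. Phagocytes are not the main known source of most collagen mRNAs. In bulk libraries, RNA carried on or taken up by the sorted cells, RNA of other cells in the sort and transcription within the phagocytes cannot be told apart, and neither can fewer cells of a type and less RNA per cell.

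RefSeq start sites (GRCm38.p6) gave 38 windows of the 250 bases upstream of a start for 35 of the 44 genes. 4 windows that overlap no annotated exon are shown on the gene's strand, since their genes stand for the patterns described further on: Col3a1 was the most abundant collagen, Col5a1 fell under anti-CTLA-4 in both hosts, and Col9a1 and Col11a1 were lower in WT than in muMT under both antibodies. Capitals mark, on either strand, the TATA box letters TATAA, the CCAAT box, the GC box core GGGCGG and the core ACAAAG that SOX factors bind. A run of TATAA with a T before it matches on both strands.
Col3a1, chr1:45311288-45311537, plus strand: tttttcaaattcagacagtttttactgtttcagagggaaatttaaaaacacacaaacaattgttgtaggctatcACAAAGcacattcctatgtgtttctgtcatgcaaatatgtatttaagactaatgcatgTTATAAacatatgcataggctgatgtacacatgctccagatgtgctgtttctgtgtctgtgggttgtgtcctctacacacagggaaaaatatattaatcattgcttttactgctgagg
Col5a1, chr2:27886175-27886424, plus strand: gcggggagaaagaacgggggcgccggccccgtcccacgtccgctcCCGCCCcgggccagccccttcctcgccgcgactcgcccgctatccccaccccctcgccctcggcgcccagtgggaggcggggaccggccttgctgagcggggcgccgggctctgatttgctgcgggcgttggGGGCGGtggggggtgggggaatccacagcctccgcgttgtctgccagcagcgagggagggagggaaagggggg
Col9a1, chr1:24177360-24177609, plus strand: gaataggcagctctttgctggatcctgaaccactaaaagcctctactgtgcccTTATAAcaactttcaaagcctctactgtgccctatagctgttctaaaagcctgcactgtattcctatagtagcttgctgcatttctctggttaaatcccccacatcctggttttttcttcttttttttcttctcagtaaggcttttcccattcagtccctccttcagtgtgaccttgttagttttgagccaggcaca
Col11a1, chr3:114030290-114030539, plus strand: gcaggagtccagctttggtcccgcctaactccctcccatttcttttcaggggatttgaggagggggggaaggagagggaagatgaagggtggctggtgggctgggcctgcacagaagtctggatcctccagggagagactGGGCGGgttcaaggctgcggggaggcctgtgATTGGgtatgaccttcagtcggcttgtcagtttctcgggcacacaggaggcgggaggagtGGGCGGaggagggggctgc
GGGCGG occurred in 22 of the 38 collagen windows (57.9%) and in 32.7% of the 32851 windows of all genes. TATAA occurred in 7 collagen windows (18.4%, against 22.8% of all windows), CCAAT in 13 (34.2% against 33.8%) and ACAAAG in 4 (10.5% against 16.5%). The Col3a1 window was AT-rich and held TATAA and ACAAAG, whereas the Col5a1 window held GGGCGG at 2 places and no TATAA. The starts of Col4a1 and Col4a2, whose chains form the common type IV network, lie 21 bases apart on opposite strands of chromosome 8.

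Reads in genes numbered between 24784639 and 31289104 per library. Reads that aligned uniquely but lay in no gene made up 20.4% and 20.8% of unique reads with isotype and 18.6% and 18.7% with anti-CTLA-4 in muMT, and 28.4% and 29.5% with isotype and 33.3% and 33.1% with anti-CTLA-4 in WT. This share was higher in WT, and with the antibody it was lower in muMT and higher in WT. Its part in the results was not tested. All 10 markers of phagocytes had reads in every library, and their summed level was 10725 to 14993 CPM. CPM is the usual per-library unit, here the reads of a gene relative to the TMM-scaled number of reads in the tested genes. Values without TMM scaling, and sums from unstranded counts, are relative to the reads in all genes instead. Ptprc, which encodes CD45, stood at 986 to 1175 CPM in all 8 libraries. The heavy chain gene Ighm was listed at 0 reads in every library and so checked no host label, while the plasma cell gene Jchain had 0 and 2 reads over the muMT groups (isotype first) and 82 and 135 over the WT groups. Markers of other cells were present too: none of the 16 endothelial and 10 oligodendrocyte lineage markers was at 0 in any library, and of 14 markers each the fibroblast list had 2 (Mfap4 and Slc6a13) and the mural cell list 1 (Cnn1) at 0 in some library. Their values are given beside the results they move with.

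The summed level of the collagens was highest in muMT isotype, at 924 and 950 CPM. WT hosts came next, with 601 and 580 CPM under isotype and 415 and 405 CPM under anti-CTLA-4, and the lowest sums were the 350 and 345 CPM of muMT anti-CTLA-4. No 2 groups overlapped in this sum. The group means were 936.8 ± 18.1, 590.7 ± 14.8, 409.7 ± 7.1 and 347.4 ± 3.0 CPM in that order (SD, n = 2 each). Under anti-CTLA-4 the sum was 2.697-fold lower in muMT and 1.44-fold lower in WT.

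**Figure D1:**
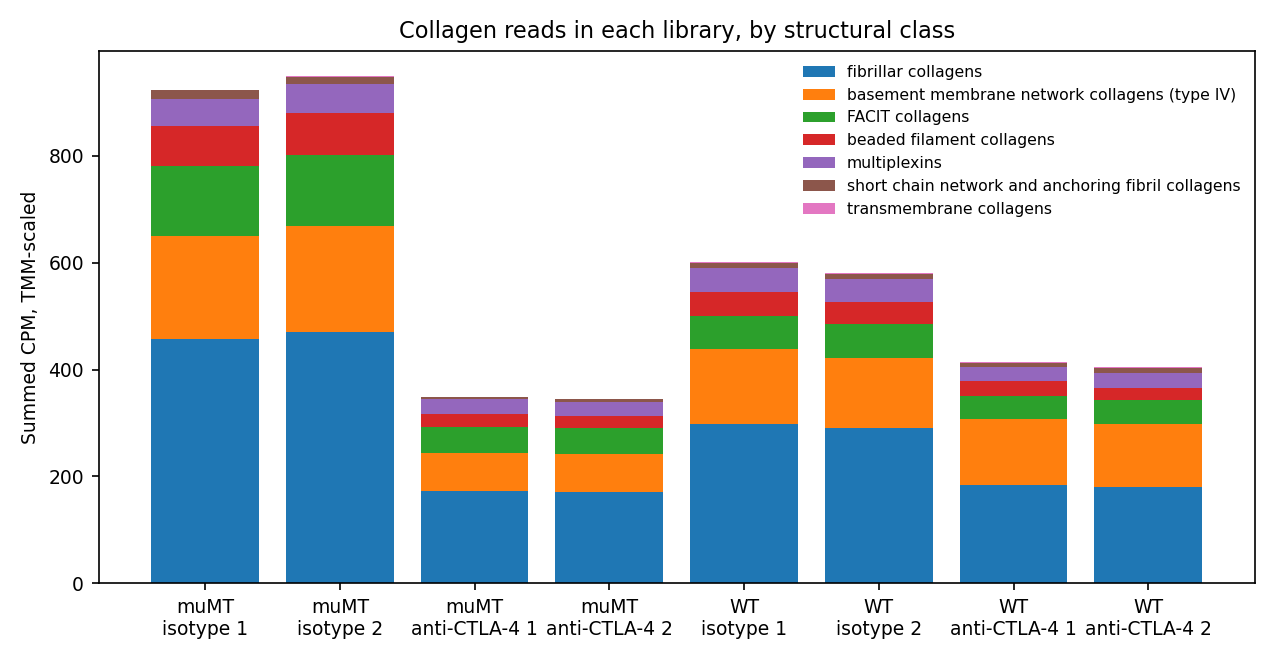
Summed level of the collagen genes in each of the 8 libraries (vertical axis, CPM after TMM scaling), with each bar stacked by structural class. The muMT isotype bars stand at 924 and 950 CPM and the muMT anti-CTLA-4 bars at 350 and 345 CPM, with both WT groups between them.

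5 genes held 56.45% of the summed collagen level, namely Col3a1, Col4a1, Col1a2, Col4a2 and Col1a1. Col3a1, the chain of type III collagen, read 189 and 182 CPM with isotype and 65.0 and 63.0 with anti-CTLA-4 for muMT hosts, and 124 and 121 CPM with isotype and 66.4 and 64.4 with anti-CTLA-4 for WT hosts. Both anti-CTLA-4 groups were thus at about the same low level and both isotype groups were above them, with muMT the higher. Col4a1 read 140 and 145, 50.9 and 50.8, 93.8 and 85.9, and 83.5 and 80.1 CPM in the same group order, so that WT anti-CTLA-4 stayed close to WT isotype. Per kilobase of transcript (lengths of the principal GENCODE vM21 transcripts), mean levels ran from 19.7 CPM per kb for Col3a1 and 13.8 for Col4a1 to 10.1 for Col1a2, 7.30 for Col9a2, 5.70 for Col4a2 and 5.22 for Col1a1.

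**Figure D2:**
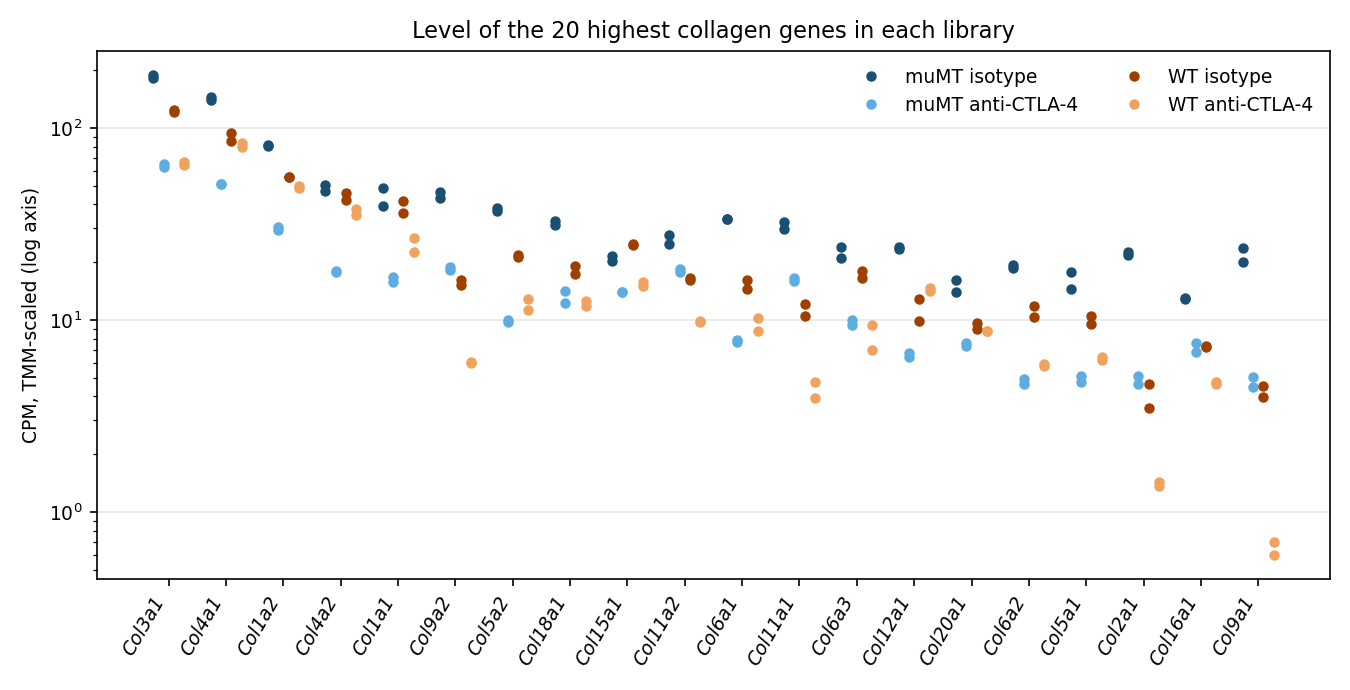
Level of the 20 most abundant collagen genes (vertical axis, CPM after TMM scaling, log axis), with 1 point per library coloured by group. Libraries of a group lie close together. For Col9a2, Col11a2, Col11a1, Col2a1, Col16a1 and Col9a1 the lowest points are those of WT anti-CTLA-4.

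The 12 genes with too few reads to test had between 2 and 33 reads over all 8 libraries. They were Col4a6 (33 reads), Col6a6 (29), Col22a1 (29), Col4a3 (22), Col17a1 (21), Col28a1 (18), Col13a1 (16), Col4a4 (13), Col6a4 (8), Col26a1 (7), Col24a1 (5) and Col19a1 (2). 3 of the 6 type IV chains, Col4a3, Col4a4 and Col4a6, were in this set. Col4a6 had 6 and 2 reads over the muMT groups (isotype first) and 5 and 20 over the WT groups. Its 95% exact (Clopper-Pearson) binomial interval in WT anti-CTLA-4, 0.236 to 0.596 CPM without TMM scaling, did not overlap those of WT isotype (0.0291 to 0.209) or muMT anti-CTLA-4 (0.00393 to 0.117). Col6a6 was also without overlap in WT, at 0.1336 to 0.4292 CPM with anti-CTLA-4 and 0.00434 to 0.1295 with isotype. These intervals cover counting error only, and no test across libraries was run on the 12 genes.

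In muMT mice, RNA of nearly every tested collagen was lower under anti-CTLA-4 than under isotype. Of 32 tested, 28 fell and 1 rose at an adjusted p under 0.05 (edgeR quasi-likelihood test, Benjamini-Hochberg over all tested genes), where 20.4% of all 16608 tested genes fell and 22.1% rose. The median log2 fold change of the 32 was -1.37, against -0.00 for all tested genes, and 21 of the 28 fell by at least 2-fold, as did 5.8% of all genes. All 10 tested fibrillar chains, all 3 tested type IV chains and all 7 tested FACIT chains fell.

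Among the fibrillar chains, Col3a1 fell by 1.54 on the log2 scale (SE 0.05, adjusted p = 1.2e-20). Col1a2, the second chain of type I collagen, read 80.6 and 81.3 CPM under isotype and 29.3 and 30.7 under anti-CTLA-4, a log2 fold change of -1.43 (SE 0.06, adjusted p = 3.9e-18). Col1a1, its partner chain, read 39.3 and 48.6 CPM and then 16.8 and 15.9, also with a log2 fold change of -1.43 but a wider SE of 0.10. Col5a2, of the type V collagen that is built into type I fibrils, went from 38.3 and 37.2 CPM to 10.03 and 9.80, and Col5a1, its partner, from 14.5 and 17.9 to 5.11 and 4.76. The groups did not overlap for any of these genes. With 2 libraries per group this also occurred for genes that did not pass, such as Col7a1 in WT. The share of all genes without overlap was not counted. Col11a2, a chain of the fibrils of cartilage, had the smallest fall of the 10, with a log2 fold change of -0.53 (SE 0.08).

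Col4a1 fell by 1.49 and Col4a2 by 1.45 on the log2 scale, with SEs of 0.06 and 0.07. Col4a2 read 46.9 and 50.5 CPM under isotype and 17.9 and 17.7 under anti-CTLA-4. The less abundant Col4a5 had a log2 fold change of -1.30 with an SE of 0.23. Col6a1, a chain of the beaded filaments of type VI collagen, fell from 33.7 and 33.5 CPM to 7.92 and 7.69 (log2 fold change -2.11, SE 0.10, adjusted p = 2.7e-17), and its partner Col6a2 from 18.7 and 19.3 to 4.91 and 4.66. Col6a3, the third chain of that filament, fell less, from 21.2 and 24.0 CPM to 9.37 and 10.04. Col14a1, a FACIT collagen, had the most negative log2 fold change among genes with reads in both groups, -2.29 (SE 0.15), at 9.83 and 10.6 CPM against 1.98 and 2.18. Of the collagens that release anti-angiogenic fragments, Col18a1 fell from 31.2 and 32.9 CPM to 14.2 and 12.3, and Col15a1 from 20.2 and 21.7 to 14.0 and 14.0 (log2 fold change -0.58, SE 0.09).

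Col10a1, known from hypertrophic cartilage, had 50 reads over the muMT isotype libraries and 0 over the muMT anti-CTLA-4 libraries, at least 17.1-fold lower against a floor of 3 reads per group. In WT it had 15 reads under isotype and 0 under anti-CTLA-4, at least 4.64-fold lower, but 13 of the 15 reads were in replicate 2 and 2 in replicate 1, which alone is under the floor and gives no bound. Col10a1 passed the filter on low counts only through muMT isotype, where it was high, so its calls, which are in the counts given here, support nothing. The floors cover counting error only. Col6a5, another type VI chain, was the only tested collagen that rose in muMT, with 21 reads over the isotype libraries and 60 over the anti-CTLA-4 libraries (log2 fold change 1.51, SE 0.48, adjusted p = 0.012). Without muMT isotype replicate 1 the adjusted p of Col6a5 was 0.1278. Col8a2, Col23a1 and Col25a1, all under 1.6 CPM in every library, did not pass the test in muMT.

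In WT mice the antibody was followed by a smaller fall that left several abundant chains close to their isotype level. Of 32 tested, 20 fell and 2 rose, where 15.9% of all genes fell and 14.7% rose, and the median log2 fold change was -0.64 against -0.01 for all genes. 7 of the 20 fell by at least 2-fold, as did 2.25% of all genes. 9 of the 10 fibrillar chains fell, but only 1 of the 3 type IV chains and 4 of the 7 FACIT chains.

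The largest falls with reads in both groups were those of chains of the type II, IX and XI collagens, which together form the thin fibrils of cartilage, and of Col5a3. Col9a1 read 3.96 and 4.56 CPM under isotype and 0.601 and 0.698 under anti-CTLA-4 (log2 fold change -2.70, SE 0.24, adjusted p = 1.1e-10). Col9a2 read 16.2 and 15.2 CPM and then 6.01 and 6.06 (log2 fold change -1.38, SE 0.10), and Col11a1 read 10.5 and 12.1 and then 3.92 and 4.74 (-1.37, SE 0.13). Col2a1 had a log2 fold change of -1.53 (SE 0.20) and Col5a3 of -1.56 (SE 0.17). The third type IX chain did not follow them: Col9a3 read 2.23 and 3.16 CPM under isotype and 3.40 and 4.00 under anti-CTLA-4, and did not pass the test.

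Col3a1 fell by 0.91 on the log2 scale in WT (SE 0.05, adjusted p = 7.6e-15) and Col6a3 by 1.08 (SE 0.12). Col1a2 read 55.7 and 55.9 CPM under isotype and 48.6 and 49.97 under anti-CTLA-4, a log2 fold change of -0.18 (SE 0.06, adjusted p = 0.023) that lost its call under 7 of 15 alternatives. These were DESeq2, each WT library left out and each muMT anti-CTLA-4 library left out, with adjusted p-values from 0.0512 to 0.1733. Col4a2 read 45.9 and 42.0 CPM and then 38.0 and 35.2 (log2 fold change -0.26, SE 0.07, adjusted p = 0.0042). Its adjusted p was 0.08922 without WT isotype replicate 1 and 0.1032 without WT anti-CTLA-4 replicate 2. Col4a1, at -0.14 (SE 0.06, adjusted p = 0.062), did not pass.

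Both exceptions in WT were weakly held. Col12a1, a FACIT collagen of tendon and other tissues under tension, read 9.86 and 12.8 CPM under isotype and 14.2 and 14.6 under anti-CTLA-4, a log2 fold change of 0.34 (SE 0.11, adjusted p = 0.017). Its adjusted p was 0.3897 without WT isotype replicate 1, and 0.05614 and 0.1135 without WT anti-CTLA-4 replicate 1 and 2. Col6a5 had 23 reads over the WT isotype libraries and 54 over the WT anti-CTLA-4 libraries (log2 fold change 1.35, SE 0.48, adjusted p = 0.031). Its adjusted p was 0.08149 with DESeq2, 0.05342 and 0.1961 without WT isotype replicate 1 and 2, and 0.4661 without WT anti-CTLA-4 replicate 1.

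**Figure D3:**
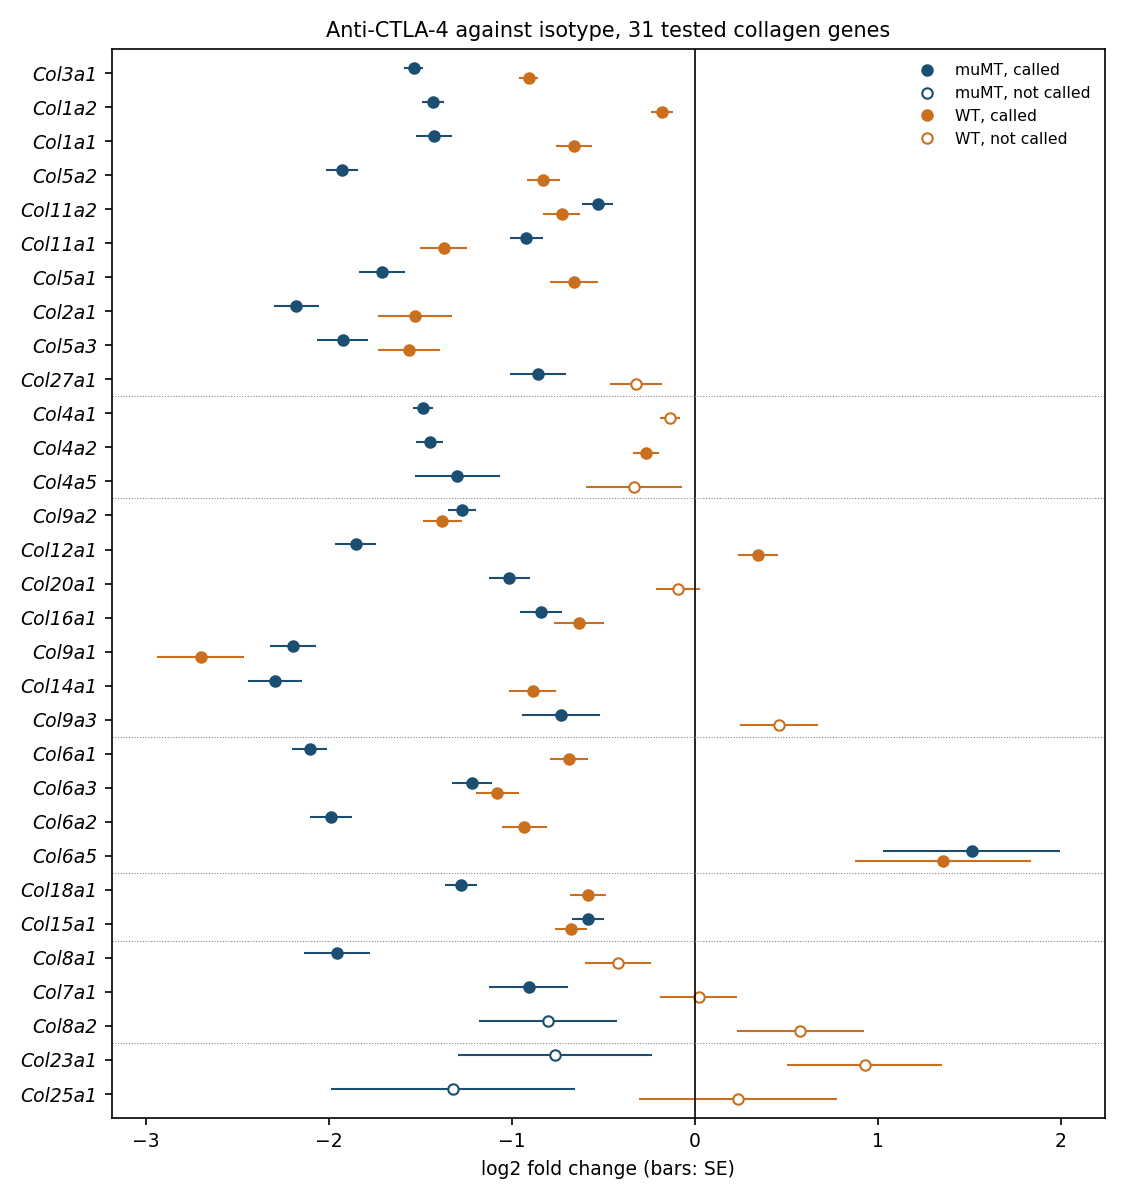
Log2 fold change of anti-CTLA-4 against isotype for 31 tested collagen genes, in WT and in muMT (bars, SE from edgeR), with Col10a1 left out because it has 0 reads under anti-CTLA-4. Most muMT points lie to the left of the WT point of the same gene, as for Col12a1 (-1.85 in muMT, 0.34 in WT), while for Col11a1 the WT point is the lower one.

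The difference between the antibody effects was tested directly, as the log2 fold change in WT minus that in muMT. At an adjusted p under 0.05 it passed as positive for 21 of the 32 collagens and as negative for 1, where 17.5% of all genes passed as positive and 19.8% as negative. By sign alone, 26 were above 0 and 6 below. Its median was 0.95 for the collagens and 0.01 for all genes. 11 of the 21 fell in both hosts and fell less in WT, and 7 fell in muMT and did not pass in WT. 2 (Col8a2 and Col23a1) passed in neither host, and Col12a1 fell in muMT and rose in WT. The shares of all genes with these patterns were not counted. The largest difference among the collagens that passed was that of Col12a1, 2.20 (SE 0.16, adjusted p = 1.9e-12). Col4a1 differed by 1.35 (SE 0.08), Col1a2 by 1.25 (SE 0.09), Col4a2 by 1.18 (SE 0.10) and Col6a1 by 1.42 (SE 0.14). Col3a1, which fell in both hosts, differed by 0.63 (SE 0.07).

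Col11a1 was the only collagen that passed the test with a negative difference, at -0.45 (SE 0.16, adjusted p = 0.025). Its adjusted p was 0.07878 with DESeq2 and 0.0553 to 0.1882 without muMT isotype replicate 1, muMT anti-CTLA-4 replicate 1, WT isotype replicate 2 or WT anti-CTLA-4 replicate 1. The difference did not pass for Col9a2 (-0.11, SE 0.13), Col9a1 (-0.50, SE 0.30), Col11a2 (-0.20, SE 0.13), Col15a1 (-0.09, SE 0.12) or Col6a3 (0.14, SE 0.16), all of which fell in each host. A missed threshold does not show that their effects were equal.

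Under isotype, most collagens were lower in WT than in muMT. 21 of 32 were lower and 1 higher, where 19.2% of all genes were lower and 19.9% higher, and the median log2 fold change was -0.68. Leaving Col10a1 aside, chains of cartilage fibrils had the largest gaps. Col2a1 read 21.8 and 22.5 CPM in muMT isotype and 3.46 and 4.63 in WT isotype (log2 fold change -2.45, SE 0.13, adjusted p = 1.5e-15). Col9a1 read 23.7 and 20.2 CPM and 3.96 and 4.56 (-2.36, SE 0.13), Col9a2 read 43.4 and 46.6 and 16.2 and 15.2 (-1.52, SE 0.08), and Col11a1 read 29.7 and 32.3 and 10.5 and 12.1 (-1.46, SE 0.10). For none of these genes did the hosts overlap. Col1a1 (-0.17, SE 0.09), Col4a2 (-0.15, SE 0.07), Col14a1 (0.09, SE 0.12) and the type IX chain Col9a3 (-0.47, SE 0.21) did not pass. The hosts did not overlap for Col4a2 and Col9a3 either. Col15a1 was the 1 higher gene, at 24.6 and 24.9 CPM in WT against 20.2 and 21.7 in muMT (log2 fold change 0.24, SE 0.08, adjusted p = 0.020). It lost this call under 4 alternatives: its adjusted p was 0.0777 with DESeq2, 0.1259 without muMT isotype replicate 1, and 0.05874 and 0.09916 without WT isotype replicate 1 and 2.

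Under anti-CTLA-4, 16 of the 32 collagens were higher in WT than in muMT and 7 lower, where 27.4% of all genes were higher and 28.7% lower, and the median was 0.28. The share of collagens that were lower, 21.9%, was below that of all genes. The higher ones included Col4a2 (log2 fold change 1.04, SE 0.08, adjusted p = 1.4e-12), Col4a1 (0.68, SE 0.06), Col1a2 (0.72, SE 0.06), Col1a1 (0.59, SE 0.11) and Col12a1 (1.13, SE 0.12). Col14a1, also among them, read 1.98 and 2.18 CPM in muMT and 5.85 and 5.92 in WT. 7 of the 16, Col4a1, Col1a2 and Col12a1 among them, had been lower in WT under isotype. For these the order of the hosts was the opposite under the other antibody. The share of all genes with this reversal was not counted. The call of Col5a2 (0.29, SE 0.10) was lost with unstranded counts and without either muMT anti-CTLA-4 library or without the second WT anti-CTLA-4 library (adjusted p 0.05324 to 0.2245). That of Col6a1 (0.29, SE 0.11) was lost with unstranded counts, with DESeq2 and without either muMT anti-CTLA-4 library or without the first WT anti-CTLA-4 library (adjusted p 0.05545 to 0.3114).

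All 7 lower genes were also lower in WT under isotype (the share of all genes lower under both antibodies was not counted). They were Col2a1, Col9a1, Col9a2, Col11a1, Col11a2, Col16a1 and Col5a3. 5 of them are chains of the type II, IX and XI cartilage fibrils, a grouping made after the values were seen. The remaining tested chain of these types, Col9a3, went the other way. It was higher in WT (log2 fold change 0.73, SE 0.22, adjusted p = 0.0054). Col9a1 read 4.49 and 5.07 CPM in muMT anti-CTLA-4 and 0.601 and 0.698 in WT anti-CTLA-4, a log2 fold change of -2.87 (SE 0.23, adjusted p = 7.7e-12). Col11a1 read 16.6 and 16.1 CPM and 3.92 and 4.74 (-1.91, SE 0.12), and Col9a2 read 19.0 and 18.3 and 6.01 and 6.06 (-1.62, SE 0.10). Col2a1 was at 5.11 and 4.66 CPM and 1.44 and 1.36 (-1.80, SE 0.19). For all 4 of these genes muMT isotype was the highest group and WT anti-CTLA-4 the lowest. The order was not theirs alone, since it also held for Col11a2, Col16a1 and Col5a3. By group means it held for Col6a3 and Col18a1 too, whose anti-CTLA-4 libraries overlapped between hosts.

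**Figure D4:**
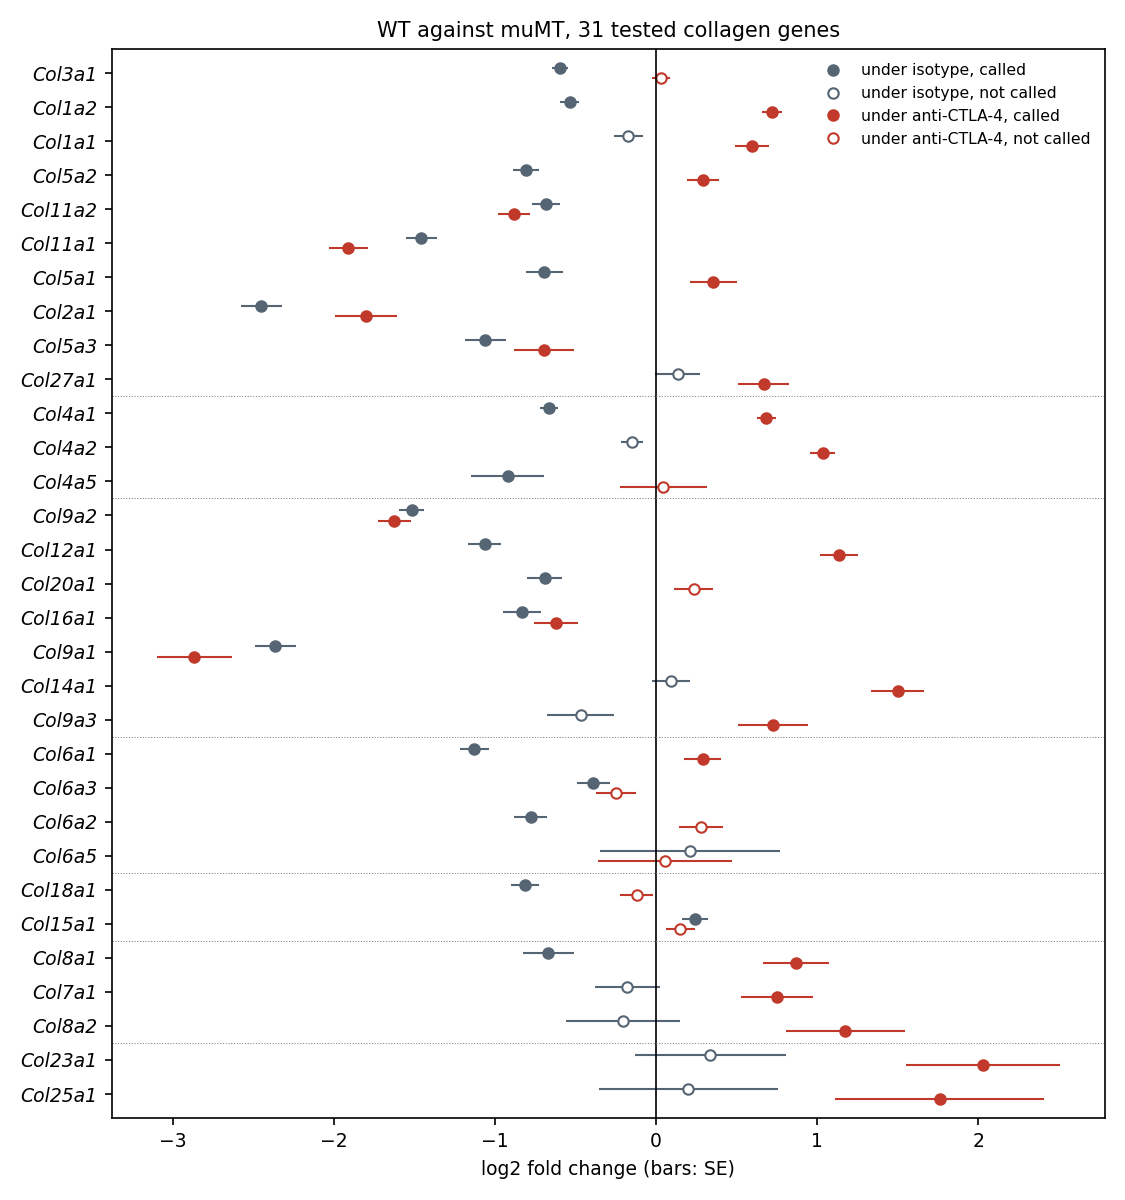
Log2 fold change of WT against muMT for 31 tested collagen genes under isotype and under anti-CTLA-4 (bars, SE from edgeR), without Col10a1. Col2a1, Col9a1, Col9a2 and Col11a1 lie far left of 0 under both antibodies, whereas Col4a1, Col1a2 and Col12a1 lie left of 0 under isotype and right of 0 under anti-CTLA-4.

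The mix of collagens also differed between groups. Fibrillar chains made up 49.4% to 50.2% of the summed collagen level in 6 libraries and 44.2% and 44.5% in WT anti-CTLA-4. Type IV chains made up 20.2% to 20.9% of it in the 4 muMT libraries, 23.5% and 22.5% with isotype in WT, and 29.8% and 29.1% with anti-CTLA-4 in WT. FACIT chains were 14.1% to 14.3% of the sum in muMT and 10.1% to 11.1% in WT. Within muMT these 3 classes kept their shares at summed levels 2.697-fold apart, but others did not. The multiplexins Col15a1 and Col18a1 made up 5.57% and 5.75% of the sum with isotype and 8.05% and 7.60% with anti-CTLA-4 in muMT, and the beaded filament chains 8.02% and 8.16% and then 6.72% and 6.82%. Per kilobase, Col4a1 was 0.595 to 0.679 times the level of Col3a1 in 6 libraries and 1.06 and 1.05 times in WT anti-CTLA-4.

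Chains that join in 1 molecule kept their ratio in some cases only. Per kilobase, the level of Col1a1 was 0.409 to 0.679 times that of Col1a2, although the protein holds more of the first chain than of the second. The ratio of Col4a1 to Col4a2 was 2.77 to 2.92 in the 4 muMT libraries and 1.99 to 2.22 in the 4 WT libraries, with no overlap between hosts. The ratio of Col9a1 to Col9a2 was 0.416 and 0.330 with isotype and 0.180 and 0.212 with anti-CTLA-4 for muMT hosts, and 0.186 and 0.229 with isotype and 0.0763 and 0.0878 with anti-CTLA-4 for WT hosts. Ratios between genes rest on the lengths of single transcripts, and the transcripts in use were not measured. No test was run on shares or ratios.

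Other matrix genes also fell in muMT under anti-CTLA-4. Of all tested genes, 20.4% fell and 22.1% rose in muMT, and 15.9% fell and 14.7% rose in WT. Of 13 tested basement membrane proteins other than collagens, 11 fell and none rose in muMT (median -1.06), whereas 4 rose and none fell in WT (median 0.09). Lama2, a laminin chain, fell by 3.08 on the log2 scale in muMT (SE 0.22), Nid1 (nidogen, which links laminin to type IV collagen) by 1.51 (SE 0.11) and Lamb1 by 1.57 (SE 0.13). The difference of the effects passed as positive for 10 of the 13 and as negative for none (median 0.97). Of all genes, 17.5% passed as positive and 19.8% as negative. Under anti-CTLA-4, 12 of the 13 were higher and 1 lower in WT than in muMT, where 27.4% of all genes were higher and 28.7% lower. In WT, Lama5 rose by 1.00 (SE 0.19) and Agrn by 0.47 (SE 0.08). Of 24 other matrix proteins, 20 fell and 2 rose in muMT (median -0.95), and 8 fell and 4 rose in WT (median -0.21). The 4 that rose in WT, 16.7% of the list, were near the share of all genes. Mgp, matrix Gla protein, fell in muMT by 3.80 (SE 0.09), while Fn1, fibronectin, rose there by 1.32 (SE 0.05).

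The enzymes and chaperones that make collagen had smaller median changes than the chains. Of 21 tested genes for modification, folding and export, 11 fell and 5 rose in muMT (median -0.31), and 8 fell and none rose in WT (median -0.14). Of all tested genes, 20.4% fell and 22.1% rose in muMT, and 15.9% fell and 14.7% rose in WT. The 5 that rose in muMT, 23.8% of the list, were near the share of all genes. Serpinh1, the collagen chaperone HSP47, read 21.6 and 22.5 CPM with isotype and 14.4 and 13.6 with anti-CTLA-4 for muMT hosts, and 17.5 and 15.4 CPM with isotype and 14.4 and 16.7 with anti-CTLA-4 for WT hosts. Its log2 fold change was -0.65 (SE 0.09, adjusted p = 1.3e-06) in muMT and -0.08 (SE 0.10, adjusted p = 0.62) in WT. P4ha2, a subunit of prolyl 4-hydroxylase, fell by 1.35 (SE 0.14) in muMT, and Plod3, a lysyl hydroxylase, rose by 0.51 (SE 0.05). Of 12 genes for processing and cross-linking, 7 fell and 1 rose in muMT, and 3 fell and 2 rose in WT. The 2 that rose in WT, 16.7% of the list, were near the share of all genes. Lox, which cross-links collagen, fell by 1.66 (SE 0.11) in muMT, while the transglutaminase Tgm2 rose by 0.81 (SE 0.04).

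Of 13 receptors and uptake genes, 5 fell and 3 rose in muMT, and 3 fell and 3 rose in WT. The 3 rising or falling in WT are 23.1% of the list, where 14.7% of all genes rose and 15.9% fell, and the 3 rising in muMT stand near the 22.1% of all genes that rose there. Mrc1, an uptake receptor that binds collagen, had a log2 fold change of -1.79 (SE 0.04) in WT and 0.01 (SE 0.04, adjusted p = 0.93) in muMT, and Cd36 rose by 0.79 in WT and by 1.56 in muMT (SE 0.05 each). Of 14 cleavage genes, 7 fell and 5 rose in muMT, where 20.4% of all genes fell and 22.1% rose. In WT 7 fell and none rose, where 15.9% of all genes fell and 14.7% rose. Mmp9, a gelatinase, fell by 5.40 (SE 0.19) in WT and by 1.75 (SE 0.12) in muMT. Ctsk, a cathepsin that cuts the triple helix, rose by 1.48 (SE 0.08) in muMT and fell by 0.35 (SE 0.10) in WT.

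Markers of vessel wall cells and fibroblasts were measured beside the collagens. Among all tested genes, 20.4% fell and 22.1% rose in muMT under anti-CTLA-4, and 15.9% fell and 14.7% rose in WT. Of 13 tested mural cell markers, 10 fell and none rose under anti-CTLA-4 in muMT (median -1.32), and 5 fell and none rose in WT (median -0.01). Their summed level was 82.7 to 88.7 CPM with isotype and 32.1 to 36.0 with anti-CTLA-4 for muMT hosts, and 50.7 to 54.2 CPM with isotype and 41.5 to 44.4 with anti-CTLA-4 for WT hosts, the same order of groups as for the summed collagens. Pdgfrb, the mural cell receptor for PDGF-B, fell by 2.12 (SE 0.13) in muMT and by 0.62 (SE 0.13) in WT. Rgs5, a pericyte marker, fell by 1.22 (SE 0.10) in muMT and was at -0.00 (SE 0.10, adjusted p = 0.99) in WT. The part of mural cell RNA in the collagen results was not tested.

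Of 13 tested fibroblast markers, 10 fell and 1 rose in muMT (median -1.03), where 20.4% of all genes fell and 22.1% rose. In WT 2 fell and 3 rose (median 0.32), where 15.9% of all genes fell and 14.7% rose. The 2 that fell in WT, 15.4% of the list, were near the share of all genes. The summed level of the fibroblast markers is mostly Gsn, a gene that phagocytes also express. It was 349 to 350 CPM with isotype and 414 to 416 with anti-CTLA-4 for muMT hosts. For WT hosts it was 331 to 343 CPM with isotype and 376 with anti-CTLA-4. Dcn (decorin) fell by 0.87 (SE 0.10) in muMT and rose by 0.39 (SE 0.10) in WT, and Pdgfra fell by 0.78 (SE 0.21) in muMT and did not pass in WT (-0.61, SE 0.26, adjusted p = 0.081). Of 16 endothelial markers, 10 fell and 3 rose in muMT (median -0.74), and 1 fell and 10 rose in WT (median 0.69). The 3 that rose in muMT, 18.8% of the list, stood below the 22.1% of all genes. Cdh5, VE-cadherin, read 5.32 and 7.44 CPM with isotype and 4.02 and 4.49 with anti-CTLA-4 for muMT hosts, and 9.05 and 9.08 CPM with isotype and 16.0 and 15.2 with anti-CTLA-4 for WT hosts, while Pecam1 rose by 0.88 (SE 0.05) in muMT and fell by 0.36 (SE 0.05) in WT. The summed endothelial level was 199 to 203 CPM with isotype and 276 to 286 with anti-CTLA-4 for muMT hosts. For WT hosts it was 319 to 323 CPM with isotype and 398 to 408 with anti-CTLA-4. The order of groups in this sum differed from that of the collagens. In muMT the sum was higher under anti-CTLA-4 although 10 of the 16 markers fell, so it did not follow most of the list. The part of these cells in the collagen results was not tested.

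Markers of the oligodendrocyte lineage and of neurons were also measured. Of 10 oligodendrocyte lineage markers, 8 were lower and 1 higher in WT than in muMT under isotype, where 19.2% of all genes were lower and 19.9% higher. With anti-CTLA-4, 6 were lower and 1 higher, where 28.7% of all genes were lower and 27.4% higher. The members differed in their order of groups. Sox10, a transcription factor of this lineage, read 8.20 and 8.76 CPM with isotype and 3.46 and 3.78 with anti-CTLA-4 for muMT hosts, and 3.57 and 4.03 CPM with isotype and 2.16 and 1.54 with anti-CTLA-4 for WT hosts. Olig1, another such factor, read 6.27 and 7.10, 4.09 and 3.51, 2.90 and 3.02, and 1.72 and 1.14 CPM in that order. As for several collagens, Col2a1, Col9a1, Col9a2 and Col11a1 among them, muMT isotype was the highest group and WT anti-CTLA-4 the lowest for both. Myelin genes of the list went another way. Cnp read 38.9 and 42.3 CPM with isotype and 61.3 and 59.7 with anti-CTLA-4 for muMT hosts, and 47.2 and 44.3 CPM with isotype and 43.7 and 48.5 with anti-CTLA-4 for WT hosts, so that muMT isotype was the lowest group. Mbp read 41.9 and 40.6 CPM in WT anti-CTLA-4, against 32.5 and 28.7 in WT isotype. The summed level of the list did not share that order, at 135 to 139 CPM with isotype and 127 to 129 with anti-CTLA-4 for muMT hosts, and 104 to 112 CPM with isotype and 112 to 114 with anti-CTLA-4 for WT hosts. The 8 neuron markers, of which 4 (Rbfox3, Stmn2, Gad1 and Slc17a7) were at 0 in some library, summed to 24.82 to 25.01 CPM with isotype and 16.7 to 16.8 with anti-CTLA-4 for muMT hosts, and to 14.4 to 14.8 CPM with isotype and 7.89 to 8.93 with anti-CTLA-4 for WT hosts, with the same highest and lowest group as these 4 collagens. The 8 astrocyte markers, none at 0, summed to 64.6 to 66.7 CPM in the other groups and 71.1 to 73.8 CPM in WT anti-CTLA-4. The part of these cells in the collagen results was not tested.

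**Figure D5:**
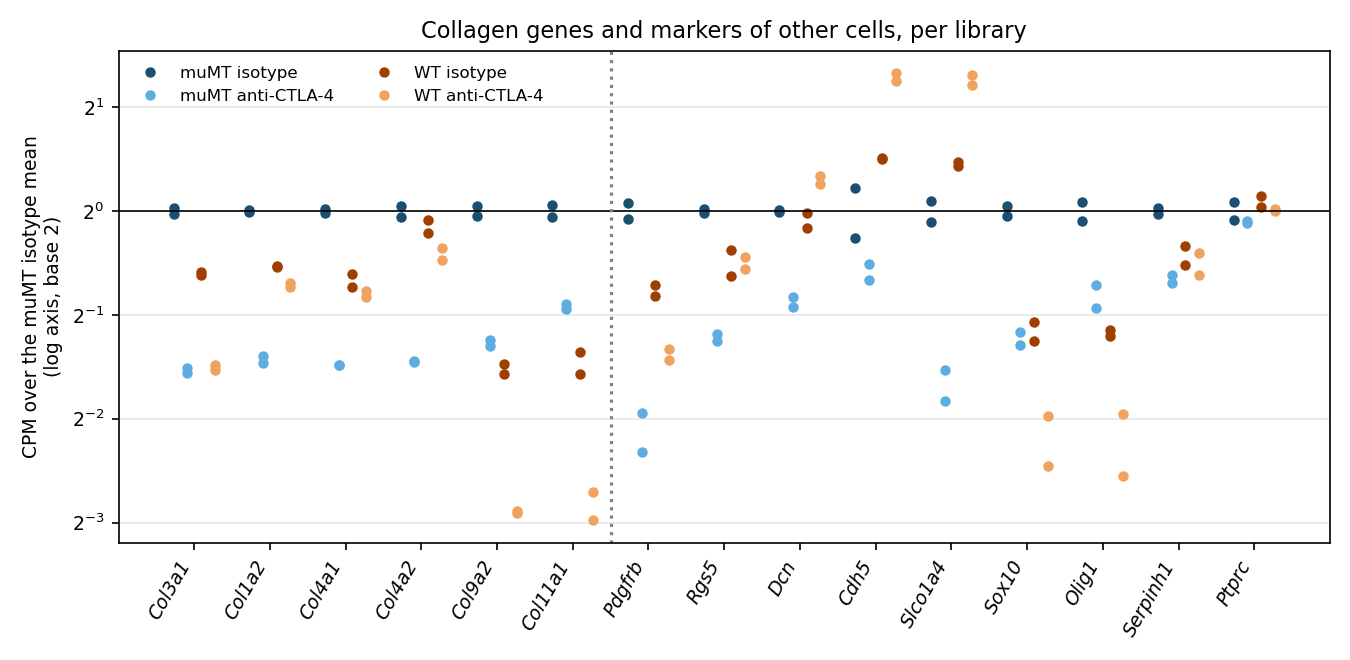
Level of collagen genes (left of the dotted line) and of markers of other cells (right) in each library, divided by the mean of muMT isotype (vertical axis, log axis of base 2, no unit). Pdgfrb and Rgs5 are lowest in muMT anti-CTLA-4, Sox10 and Olig1 are lowest in WT anti-CTLA-4, and Cdh5 is highest in WT anti-CTLA-4. The markers drawn are a selection and do not stand for their whole lists. Cnp and Mbp of the oligodendrocyte lineage and Pecam1 of endothelium, not drawn, went other ways.

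Of 10 phagocyte markers, 2 rose and 3 fell under anti-CTLA-4 in muMT, where 22.1% of all genes rose and 20.4% fell. In WT 3 rose and 2 fell (median -0.00), where 14.7% of all genes rose and 15.9% fell. Their summed level was 11686 to 12018 CPM with isotype and 14022 to 14160 with anti-CTLA-4 for muMT hosts, and 10725 to 10790 CPM with isotype and 14781 to 14993 with anti-CTLA-4 for WT hosts. This sum is carried by Lyz2, the lysozyme gene, at 5939 and 5703 CPM with isotype and 8633 and 8498 with anti-CTLA-4 for muMT hosts, and 4817 and 4799 CPM with isotype and 9009 and 9265 with anti-CTLA-4 for WT hosts. The other 9 markers summed to 6078 and 5983 CPM with isotype and 5528 and 5524 with anti-CTLA-4 for muMT hosts, and to 5973 and 5926 CPM with isotype and 5772 and 5729 with anti-CTLA-4 for WT hosts, so that without Lyz2 the sum was lower under anti-CTLA-4. Itgam, the CD11b chain, rose by 0.62 (SE 0.04) in WT and fell by 0.23 (SE 0.04) in muMT, and Csf1r, the CSF-1 receptor, fell by 0.29 in WT and 0.18 in muMT (SE 0.04 each).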

How the data were processed

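The authors deposited raw read counts per gene for 8 libraries, as whole numbers in columns by strand. Per the labels' protocols, a stranded total RNA kit was used. Per the submitters' processing notes, cutadapt 5.0, STAR 2.7, mm39 and DESeq2 1.42.1 were named, and the annotation is not given in the sources used here. The reverse-strand column was used, since it held 23.3 to 26.5 times the reads of the forward-strand one, and the 4 summary rows were left out of library sizes.

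After TMM scaling, edgeR 4.0.16 under R 4.3.3 (robust quasi-likelihood, filterByExpr) fitted the counts as 4 group means over 8 libraries, with 4 residual degrees of freedom. The call threshold was an adjusted p of 0.05 (Benjamini-Hochberg). SE is the absolute log2 fold change over the square root of F. Of 50763 genes, 16608 were tested. Alternatives were DESeq2 1.42.0, its size factors, no filter, unstranded counts, no robust dispersion, a replicate block, only the libraries compared, and each library left out. The fit was tested on simulated data.

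The collagens and gene lists were chosen with earlier results of these data known. Named were the 12 most abundant collagens, per comparison up to 6 called in each direction by p and all against the main direction, untested ones by reads, up to 4 called members per companion list, and fixed markers (Ptprc, Itgam, Csf1r, Pdgfrb, Pdgfra, Rgs5, Pecam1, Cdh5, Serpinh1). Other genes named were chosen after their values were seen. Over all tested genes, the chi-square per degree of freedom between libraries of a group was 1.76 to 7.41, above counting error. So no library was another counted again, but 2 preparations of the same RNA cannot be told from 2 mice. For the collagens alone the value was 0.76 in muMT anti-CTLA-4, not above counting error, and 2.05 to 3.66 in the other groups. Genes that share or overlap sequence may be undercounted, since reads mapping to several places were not assigned.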

Additional observations from a re-analysis of the deposited data

Results flagged for a closer look

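For 22 collagen genes a direct test of the difference between the hosts' antibody effects passed at an adjusted p under 0.05. The test was the edgeR quasi-likelihood interaction contrast, Benjamini-Hochberg adjusted over all tested genes. With DESeq2's Wald test, 15 collagens passed as positive and 0 as negative. The values are the log2 fold change in WT minus that in muMT. The difference was below 0 for Col11a1, at -0.45. It was above 0 for the other 21 genes. Among chains of fibrils it was 1.25 for Col1a2, 1.10 for Col5a2, 1.05 for Col5a1, 0.77 for Col1a1, 0.65 for Col2a1, 0.63 for Col3a1, 0.53 for Col27a1. For type IV it was 1.35 for Col4a1, 1.18 for Col4a2, 0.97 for Col4a5. For type VI it was 1.42 for Col6a1, 1.06 for Col6a2. For FACIT collagens it was 2.20 for Col12a1, 1.41 for Col14a1, 1.19 for Col9a3, 0.92 for Col20a1. For the remaining genes it was 1.69 for Col23a1, 1.54 for Col8a1, 1.38 for Col8a2, 0.93 for Col7a1, 0.69 for Col18a1. Col23a1 and Col8a2, at under 1.6 CPM in every library, passed in neither host alone. The edgeR adjusted p was close to the threshold for Col23a1 (0.0497), Col27a1 (0.046) and Col2a1 (0.043).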

How the results depend on the processing

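Most counts of collagens called stayed within 1.5 times their main value under every alternative, and no value reversed. Within that limit, the count with a positive difference of the effects, 21 in the main analysis, was 15 with DESeq2's Wald test. It was 17 without the filter on low counts. The small counts moved. In WT, 2 collagens rose with the antibody, against 4 with unstranded counts and 1 with DESeq2's Wald test, and with 1 library left out the count ran from 0 to 3. The 1 collagen that rose in muMT ran from 0 to 1 on leaving out libraries. The count of collagens that passed with a negative difference, 1 in the main analysis, and that of collagens higher in WT under isotype, also 1, were each 0 with DESeq2 and 0 to 1 on leaving out libraries. The summed level in muMT anti-CTLA-4 was 336.45 CPM without TMM scaling and 352.26 with unstranded counts (347.4 in the main analysis), and in WT anti-CTLA-4 it was 418.02 with unstranded counts (409.7). The causes were not tested. Single genes were followed under alternatives only for 66 named calls, chosen by small p, by abundance or as against the main direction. Apart from the fits that left out a library, 445 of their values kept the call and direction and 7 lost the call. These values do not describe the collagens whose calls were not followed. Same-numbered libraries of different groups deviated from their group means with correlations from -0.0706 to 0.0149, and 3 of 6 pairs were below 0. This check showed no sign of pairing by number, but it cannot show that there was none. With the replicate number as a block, 20 collagens fell and 2 rose in WT, 28 fell and 1 rose in muMT, and the difference of the effects passed as positive for 19 and as negative for 1. Under the block, 21 were lower and 1 higher in WT under isotype, and 16 higher and 7 lower under anti-CTLA-4. Groups of 2 allow no search for an outlying library, and 12 collagens had too few reads to test.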
